A study of Axonopus compressus with 6 samples.

Results

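The 251 most abundant transcript features of carpetgrass roots were described, out of 108674 assembled features (0.231%). Carpetgrass (Axonopus compressus) is a warm-season turf grass, and the seedlings belonged to 1 accession, A58. Seedlings with roots about 5 cm long received either no added aluminium (0 μM, the control) or 100 μM aluminium, and roots were taken after 24 h, with 3 libraries in each group. No label names a batch, a day or a plant, so a difference in handling and the treatment cannot be told apart. Nothing in the labels says that the 3 libraries of a group are separate plants or cultures. The p-values therefore rest on library-to-library spread alone, part or all of which may be technical. The abundant features were those whose mean over the 6 libraries was at least 250 RPKM (reads scaled by the length of the feature and by the total of the library). That mean chose them, so their height is a description and not a finding. The rule did not use the difference between control and aluminium roots, but a feature high in a single group could pass it. By group means, 30 features reached 250 RPKM in control roots alone and 19 in aluminium roots alone, so the choice was not free of their change. The last 2 features inside this limit had means of 251.2 and 251.0 RPKM, and the first 2 outside it had 248.5 and 248.4 RPKM.

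Aluminium dissolves in acid soils as an ion that stops root growth within hours, mainly at the root tip, where it binds cell walls and membranes. Tolerant grasses are known to exude organic acids that bind the ion and to alter the wall. The most abundant messenger RNAs of a growing root generally come from housekeeping functions such as protein synthesis, the cytoskeleton and central metabolism, together with wall and stress proteins. The row identifiers have the form of gene-level groups from the Trinity assembler, each holding one or more assembled contigs, and the table pairs them with no gene name, function or sequence. Which of these functions any feature serves is therefore not known here, the labelled tissue could not be checked against marker genes, and no sequence is shown. Features are called by their rank of mean RPKM, with rank 1 the highest, and by length.

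The library totals, recovered from the digits of the table, ran from 32544238 to 35204519 reads. The abundant features had 1558 to 280545 reads each in a library, with a median of 11516, so that counting error is small beside the spread between libraries. RPKM is relative to the library total, so a rise of some features lowers the others. In RNA from root tissue, fewer cells of a type and less RNA per cell cannot be told apart.

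Most of the abundant features were neither very short nor very long. Their median length was 746 bases (25th to 75th percentile 470.5 to 1225, longest 4377), against 966 bases over the 50679 features that reached 1 RPKM in at least 3 libraries and 481 bases over all 108674 features. Of the 251, 48 (19.1%) were under 400 bases, against 42.2% of all features, and 35 were of 1600 bases or more. Lengths are the smallest that give whole reads, so they can be too short, above all in features with few reads. The levels covered a wide range, with a median of 379 RPKM over the 251 features, 78 of them at or above 500 and 26 at or above 1000 RPKM. In single libraries the values ran from 119 to 9187 RPKM. Of the 251 features, 190 stayed at or above 250 RPKM in all 6 libraries and 20 at or above 1000 RPKM.

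The top of the list was held by features of a single DN number in both groups. Identifiers that share both the DN number and the c number come from the same read cluster of the assembly, here called a component. A DN number can hold several components. The DN number with the most reads supplied 10 of the 251 features, 6 of the 10 highest and 9 of the 20 highest. The feature of rank 1, 1002 bases long, belonged to it. It stood at 5009, 3846 and 8603 RPKM in controls 1, 2 and 3, and at 3051, 5384 and 3198 RPKM in aluminium libraries 1, 2 and 3. Control library 3 was the highest and the groups overlapped, with a log2 change of -0.55 (SE 0.30, limma adjusted p = 0.185).

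The feature of rank 2, of 818 bases and the only member of its component in the list, behaved differently. It had 4044, 3905 and 3771 RPKM in the controls, in the order of libraries 1 to 3 kept from here on, and 5072, 5475 and 5407 RPKM with aluminium. Every aluminium library lay above every control library, and the log2 change was 0.44 (SE 0.05, limma adjusted p = 0.000238). By group means it was the fifth most abundant feature in control roots and the most abundant in aluminium roots. The features above it in control roots were all of the DN number with the most reads, whose values were highest in control library 3. In control library 2 the feature of rank 2 was already the highest, at 3905 RPKM against 3846 RPKM for rank 1. Its move to the top by group means therefore rests partly on control library 3.

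Of the remaining features among the 10 highest, rank 6, of 227 bases, had 3365, 3251 and 3196 RPKM in control roots and 3723, 3153 and 3870 RPKM in aluminium roots. The groups overlapped and the change did not pass the test (log2 change 0.13, SE 0.07, limma adjusted p = 0.214). Rank 8, of 492 bases, had 3256, 3022 and 3106 RPKM in control roots and 2566, 2632 and 2569 RPKM in aluminium roots. All aluminium values lay below all control values, and it fell by 0.27 on the log2 scale (SE 0.04, limma adjusted p = 0.00144). Rank 10, of 1104 bases, had 1615, 1596 and 1589 RPKM in control roots and 2273, 2290 and 2318 RPKM in aluminium roots. It rose with a log2 change of 0.52 (SE 0.03, limma adjusted p = 2.92e-05), and its libraries differed within a group by no more than 1.02-fold.

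Rank 10 shared its component with ranks 12 and 16, which did not follow it closely. Rank 12, of 292 bases, went from 1672 ± 33.5 to 1906 ± 17.8 RPKM under aluminium (SD, n = 3 each), a log2 change of 0.19 (SE 0.04, limma adjusted p = 0.00415). Rank 16, of 366 bases, had 1437 ± 53.1 and 1308 ± 56.8 RPKM (SD, n = 3 each), a log2 change of -0.14 that did not pass (SE 0.05, limma adjusted p = 0.051). Reads from near-identical copies can be split between features of a component, and the sources used here do not say how the authors counted such reads.

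**Figure D1:**
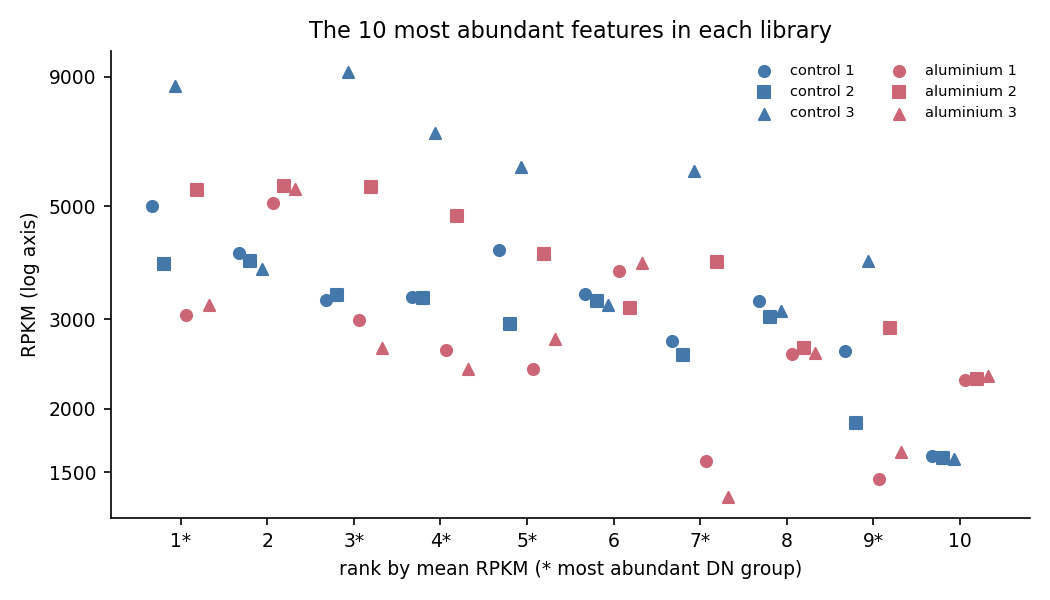
RPKM (log axis) of the 10 most abundant features in each of the 3 control (blue) and 3 aluminium (red) libraries, by rank of mean RPKM; 1 point is 1 library and an asterisk marks the DN number with the most reads. The marked features are highest in control library 3, with 8603 RPKM for rank 1, while the libraries of a group lie close together in ranks 2, 8 and 10.

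The 10 features of the most abundant DN number moved together between libraries of the same treatment. They came from 2 components, c16 and c17, of 5 features each, were 220 to 1486 bases long, and ranked from 1 to 38. All 10 were highest among the controls in control library 3 and highest among the aluminium libraries in aluminium library 2. In c16, control library 3 was 1.70 to 1.94 times the mean of control libraries 1 and 2, and in c17 it was 2.11 to 3.36 times that mean. Aluminium library 2 was 1.33 to 1.86 times the mean of aluminium libraries 1 and 3 in c16, and 1.86 to 2.66 times in c17. The components differed in the other controls too, since control library 1 was 1.26 to 1.40 times control library 2 in c16 and 0.895 to 1.07 times in c17.

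The 3 features with the widest range within a group all belonged to c17. Rank 15, of 261 bases, had 1008, 1126 and 3586 RPKM in the controls and 805, 1863 and 713 RPKM with aluminium. Rank 7, of 227 bases, had 2714, 2545 and 5854 RPKM in control roots and 1576, 3877 and 1342 RPKM in aluminium roots. Rank 3, of 267 bases, had 3276, 3346 and 9187 RPKM in control roots and 2984, 5458 and 2628 RPKM in aluminium roots. In each of them the value of control library 3 was the highest of the 6, that of aluminium library 2 came next, and the groups overlapped.

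None of the 10 features passed the test between control and aluminium roots. Their log2 changes ran from -0.77 to -0.10 with standard errors of 0.24 to 0.50, limma adjusted p values of 0.182 to 0.854, and 0 of 10 at an unadjusted p under 0.05. Without aluminium library 2 the log2 changes were -1.24 to -0.40 and 2 of the 10 passed. Without control library 3 they were -0.38 to 0.32 and 0 passed. Without both libraries they were -0.85 to 0.02 and 7 passed (lowest limma adjusted p = 0.000462). These libraries were singled out for their high values in the same features, so the last count describes how far the result rests on them and tests nothing.

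Outside that DN number, 1 feature had the same course over the libraries. Rank 93, of 712 bases, was singled out after its values were seen, as the feature with the widest range within a group among the other 241. It had 454, 366 and 799 RPKM in the controls and 268, 484 and 297 RPKM with aluminium, a log2 change of -0.60 that did not pass (SE 0.29, limma adjusted p = 0.151). Its control library 3 was 1.95 times the mean of the other controls, its aluminium library 2 was 1.71 times the mean of the other aluminium libraries, and its control library 1 was 1.24 times control library 2. The same ratios over the remaining 240 features had medians of 0.976, 1.05 and 1.02, and the highest were 1.14, 1.28 and 1.24. What these 11 features share besides this course is not known here.

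**Figure D2:**
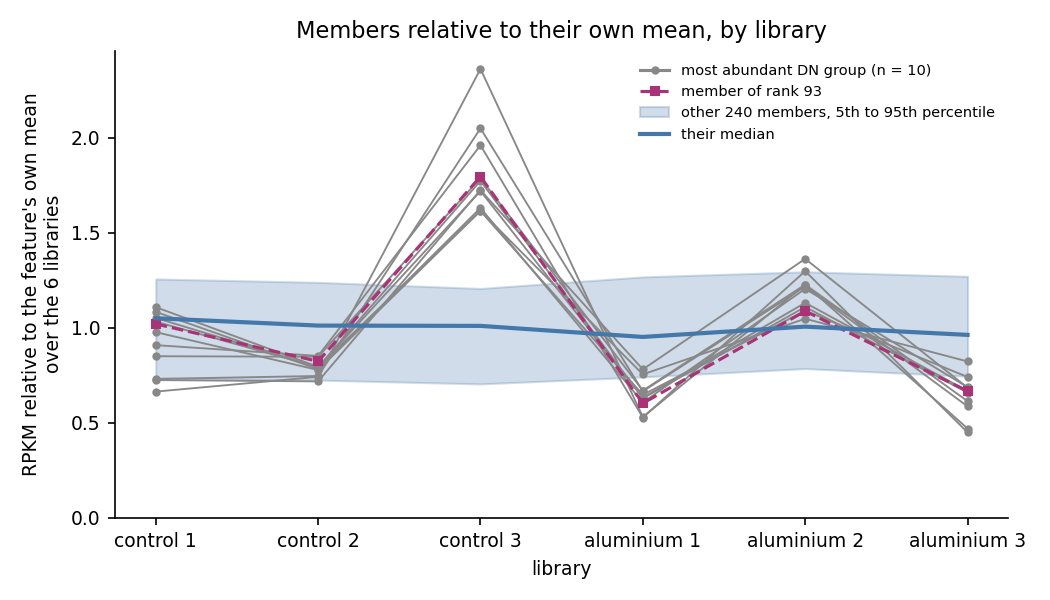
RPKM of each feature divided by its own mean over the 6 libraries. Grey lines are the 10 features of the most abundant DN number, the dashed line is the feature of rank 93, and the blue line and band are the median and the 5th to 95th percentile of the other 240 features; the grey and dashed lines peak in control library 3 and again in aluminium library 2, and the blue median stays near 1.

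Outside this DN number the libraries were close. The coefficient of variation within a group, over the 241 other features, had a median of 3.10% in control and 4.61% in aluminium libraries (n = 3 each), against 44.6% and 38.9% over the 10 features of the DN number. Counting error alone gave medians of 0.952% and 0.927% for the 241. In 172 of the 241 the aluminium libraries varied more than the controls. The median in features of 50 to 250 RPKM was 3.37% in control and 4.48% in aluminium libraries, near the values of the 241.

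The abundant features as a whole took a similar share of the libraries with and without aluminium. In control libraries 1 to 3 their part of all reads was 12.9, 12.4 and 14.0%, and with aluminium it was 12.1, 13.4 and 12.1%. The groups overlapped, and the mean share was lower with aluminium by a difference of -0.57 percentage points, inside the SD of either group (0.795 and 0.754, n = 3 each). Counted in RPKM instead of reads, the share was 19.9 ± 1.62% in control and 18.8 ± 1.29% in aluminium roots (SD, n = 3 each), a difference of -1.11 percentage points. The DN number with the most reads took 11.2 to 22.1% of these reads without aluminium and 9.46 to 15.4% with it. Without it, the other 241 features held 11.22, 11.03 and 10.89% of control reads and 10.92, 11.34 and 10.96% of aluminium reads. The group means, 11.05 ± 0.165% and 11.08 ± 0.232% (SD, n = 3 each), differed by 0.03 percentage points.

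Within this share, aluminium roots held different amounts of many features. Of the 251 features, 173 (68.9%) passed limma at an adjusted p under 0.05 (Benjamini-Hochberg, over all 50679 features tested), against 35.4% of all features tested. Of these, 73 (29.1%) rose and 100 (39.8%) fell, against 18.1% and 17.3% of all features tested, and 78 did not pass. The test compared log2(RPKM + 0.5), and at these levels the added 0.5 changes the folds little. Among the 2460 features of 50 to 250 RPKM, 71.0% differed, 29.4% upward and 41.6% downward, so the shares of the 251 were near those of the features below them in abundance.

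The median size of the measured changes was near that of all features, and the errors were smaller. The median absolute log2 change of the 251 was 0.31, against 0.30 over all features tested. The median standard error was 0.05 against 0.15. Larger errors by themselves widen absolute changes, so these 2 median changes are not like measures. In features of 50 to 250 RPKM the median absolute log2 change was 0.28 and the median standard error 0.05. The features that rose did so by a median of 1.30-fold (25th to 75th percentile 1.23 to 1.59), and those that fell did so by a median of 1.34-fold (1.20 to 1.49). Of the 173 changed features, 61 changed by less than 1.25-fold. Rises of at least 1.5-fold numbered 22 (10.3% of all features tested rose this far) and falls 23 (5.88% of all features tested). Changes of at least 2-fold numbered 8 of 251, against 4.09% of all features tested, and 7 of the 8 were rises. Without control library 3 and aluminium library 2 there were 35 falls of at least 1.5-fold.

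**Figure D3:**
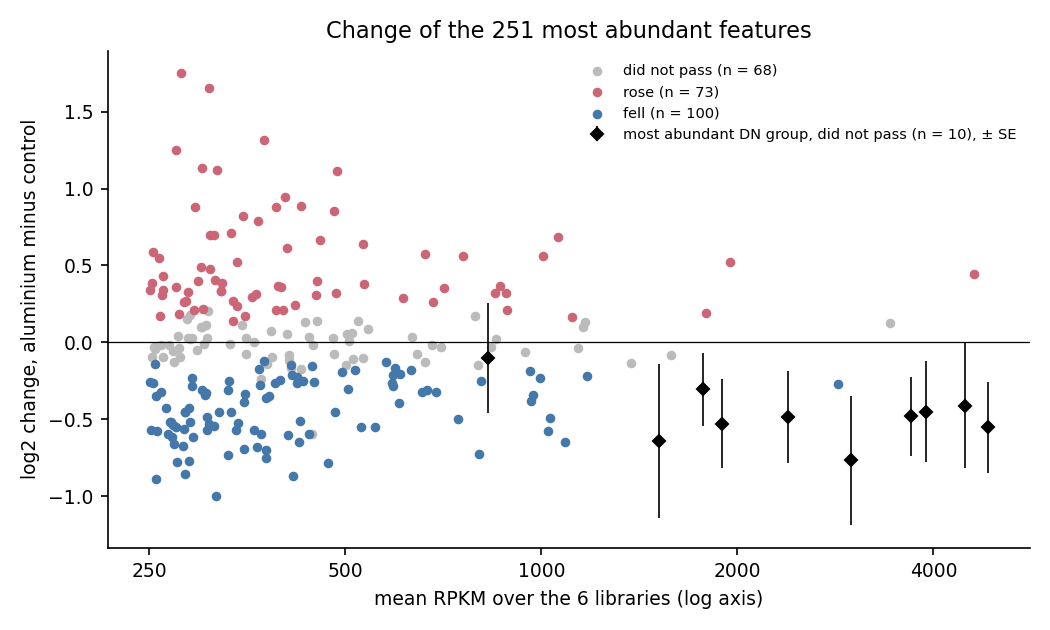
Log2 change between aluminium and control roots against mean RPKM (log axis) for the 251 features, 1 point per feature, with 73 that rose, 100 that fell and 78 that did not pass (10 of these, black with SE bars, belong to the most abundant DN number). The rises of at least 2-fold lie under 500 RPKM, and the black points lie below 0 with long bars.

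Control and aluminium values were fully apart in 190 of the 251 features (75.7%), against 49.2% of all features tested. All aluminium libraries lay above all controls in 79 of them and below in 111, against 24.7% and 24.5% of all features tested. Of the 190, 18 did not pass the test, and 1 feature that passed had overlapping groups. The median log2 change of the 251 was -0.09, against 0.01 over all features tested, and 148 of the 251 had a negative log2 change. Outside the most abundant DN number the median was -0.08. In features of 50 to 250 RPKM it was -0.07 and in those of 10 to 50 RPKM -0.06, so a negative median was not particular to the 251. Quantile normalization brought the median of the 251 to -0.04.

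By level, the counts were as follows. Of the 26 features at or above 1000 RPKM, 6 rose, 5 fell and 15 did not pass, and 9 of these 15 belonged to the most abundant DN number. From 500 to 1000 RPKM 11 of 52 rose and 22 fell, from 350 to 500 RPKM 20 of 68 rose and 29 fell, and from 250 to 350 RPKM 36 of 105 rose and 44 fell. Changes of at least 1.5-fold were made by 22 of 105 features from 250 to 350 RPKM (21.0%), 19 of 68 from 350 to 500 (27.9%), 2 of 52 from 500 to 1000 (3.85%) and 2 of 26 at or above 1000 RPKM (7.69%), against 16.1% of the features of 50 to 250 RPKM. The differences between these classes were not tested.

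The features with the largest rises were below 250 RPKM in control roots and entered the list through their mean over both groups. TRINITY_DN21183_c1_g4, rank 212 and 394 bases long, had 137, 119 and 128 RPKM in the controls and 442, 414 and 437 RPKM with aluminium. The lowest aluminium library was far above the highest control, and the reads ran from 1558 to 5943 per library. The means were 128 ± 8.77 and 431 ± 14.6 RPKM (SD, n = 3 each), a log2 change of 1.75 (SE 0.055, limma adjusted p = 3.43e-06), or 3.37-fold as a ratio of means. It was the lowest of the 251 features by control mean and the 103rd by aluminium mean.

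TRINITY_DN38026_c1_g1, rank 174 and 1197 bases long, had 149, 153 and 144 RPKM in the controls and 479, 453 and 476 RPKM with aluminium. The groups were again well apart, at 149 ± 4.30 and 469 ± 14.5 RPKM (SD, n = 3 each). The log2 change was 1.65 (SE 0.04, limma adjusted p = 1.6e-06), a ratio of means of 3.15. The other listed feature of its component, rank 131 and 1596 bases long, rose as well. It had 214, 219 and 211 RPKM in control roots and 549, 494 and 565 RPKM in aluminium roots, with no overlap and a log2 change of 1.31 (SE 0.05, limma adjusted p = 5.72e-06).

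The falls were smaller. Both features described here were below 250 RPKM in aluminium roots and entered the list through their mean over both groups. TRINITY_DN38860_c1_g4, rank 167 and 305 bases long, had 433, 419 and 413 RPKM in the controls and 208, 224 and 200.3 RPKM with aluminium. The groups did not overlap, and the means were 422 ± 10.4 and 211 ± 12.0 RPKM (SD, n = 3 each). It fell by 1.001 on the log2 scale (SE 0.05, limma adjusted p = 8.44e-06), and no other of the 251 features fell by 2-fold. Over the other fits its log2 change lay between -1.06 and -0.92, so this 2-fold call depends on the setting. TRINITY_DN37438_c0_g1, rank 241 and 735 bases long, had 330, 327 and 340.2 RPKM in control roots and 184, 199 and 158 RPKM in aluminium roots. All aluminium values lay below all control values, at 332 ± 6.98 and 180.0 ± 20.7 RPKM (SD, n = 3 each), and it fell by 0.89 on the log2 scale (SE 0.08, limma adjusted p = 8.48e-05). By aluminium mean it was the lowest of the 251.

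**Figure D4:**
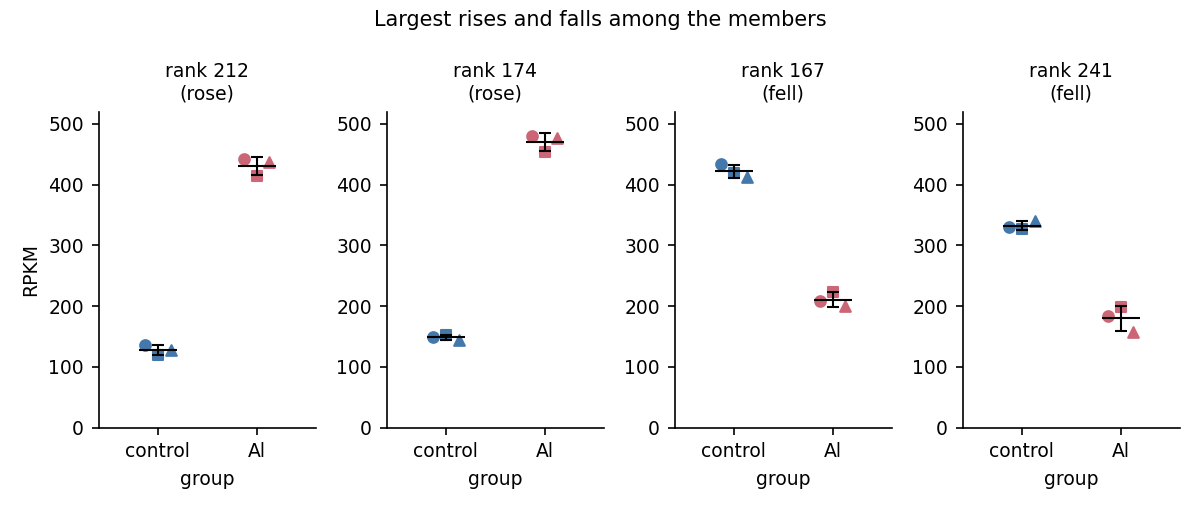
RPKM in each library (symbols: circle, square and triangle for libraries 1, 2 and 3) with the group mean and SD for the 2 features with the largest rises (ranks 212 and 174) and the 2 with the largest falls (ranks 167 and 241). Control (blue) and aluminium (red) values do not overlap in any of the 4.

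Among features at or above 1000 RPKM that passed the test, the widest rise and fall stood at neighbouring ranks. Rank 22, of 839 bases, had 1359, 1340.3 and 1282 RPKM in control roots and 848, 842 and 853 RPKM in aluminium roots. All 3 aluminium libraries were below all controls, and it fell by 0.65 on the log2 scale (SE 0.04, limma adjusted p = 1.77e-05). Rank 23, of 1137 bases, had 856, 786 and 799 RPKM in control roots and 1281, 1340.5 and 1300.4 RPKM in aluminium roots. It rose with no overlap, a log2 change of 0.68 (SE 0.04, limma adjusted p = 2.49e-05). These 2 were picked after their values were seen, as were the examples of split components below.

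The order of the features shifted, though most stayed high in both groups. Of the 251, 202 had a mean of at least 250 RPKM in both groups, 30 in control roots alone and 19 in aluminium roots alone. Ranked within the 251, the 10 highest by control mean and the 10 highest by aluminium mean had 9 features in common, and the 100 highest had 79. A feature high in a single group but under 250 RPKM over both is missing from this ranking, so the rule can raise the overlap of the 100. The 7 features that rose by at least 2-fold had control means of 128 to 307 RPKM.

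The 73 features that rose made up 2.98, 2.92 and 2.89% of all reads in controls 1 to 3, and 4.07, 4.17 and 4.10% with aluminium. The 100 that fell made up 5.01, 4.96 and 4.85% in the controls, and 3.76, 3.92 and 3.72% with aluminium. Both sets were chosen by their change, so these shares give its extent and no test. The gain of 1.19 and the loss of 1.14 percentage points were close in size. The 68 features outside the most abundant DN number that did not pass made up 3.18 ± 0.0467% of control reads and 3.16 ± 0.0802% of aluminium reads (SD, n = 3 each).

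**Figure D5:**
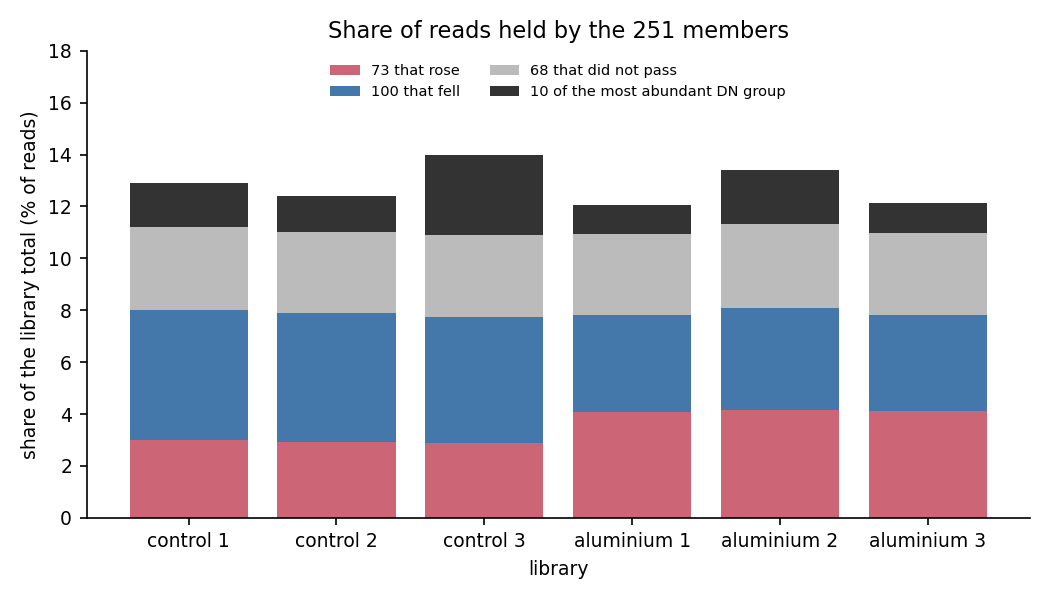
Share of the library total held by the 251 features in each library, in percent of reads, stacked by outcome. The part of the 73 that rose is 2.89 to 2.98% without aluminium and 4.07 to 4.17% with it, and the black part of the most abundant DN number is thickest in control library 3, at 3.08%.

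Some features held a narrow level across the treatment. For 85 of the 251 the 95% interval of the change, taken for each feature alone, lay within 1.25-fold in either direction, and 24 of these 85 passed the test with a small change. For 13 it lay within 1.1-fold. Rank 75, of 1793 bases, had 509, 508 and 497 RPKM in control roots and 505, 497 and 521 RPKM in aluminium roots. The groups overlapped, with a log2 change of 0.01 and an interval of -0.07 to 0.09. Rank 37, of 764 bases, was the highest of the 13, with 832, 864 and 839 RPKM in control roots and 798, 863 and 820.2 RPKM in aluminium roots and an interval of -0.13 to 0.06 on the log2 scale.

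Features of 1 component did not always change alike. The 251 features came from 210 components, and 28 components supplied at least 2 of them. Directions within components were counted without setting them beside features of different components. In 20 components at least 2 listed features changed, all upward in 6, all downward in 8 and both ways in 6. Ranks 29 and 36, of 762 and 614 bases, were such a split pair. Rank 29 had 1099, 1116 and 1051 RPKM in control roots and 803, 881 and 825 RPKM in aluminium roots, a fall of 0.38 on the log2 scale (SE 0.05, limma adjusted p = 0.000454). Rank 36 had 780.3, 739.8 and 745 RPKM in control roots and 909, 997 and 926 RPKM in aluminium roots, a rise with a log2 change of 0.32 (SE 0.05, limma adjusted p = 0.00107). In both the groups were apart, so that rank 29 lay above rank 36 in every control and below it in every aluminium library.

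The component of TRINITY_DN38860_c1_g4 was split as well. Its listed sister of rank 32, of 494 bases, had 860, 767 and 835 RPKM in control roots and 905, 1014 and 932 RPKM in aluminium roots, a rise with a log2 change of 0.21 (SE 0.06, limma adjusted p = 0.0218). Of all features tested 35.4% changed, of those from 10 to 50 RPKM 57.4%, and of those from 50 to 250 RPKM 71.0%. Beyond the list, 266 tested features shared a component with a listed one and 150 of them changed. The 266 were not split by level, so this count has no background of like abundance. Of the 117 changed ones whose listed sisters had changed in a single direction, 88 moved the same way and 29 the other way. The 88 and 29 were not set beside features of other components, and reads split between sisters can tie their values.

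By length, the counts were as follows. Of the 48 features under 400 bases 7 rose, 21 fell and 20 did not pass. From 400 to 800 bases 28 of 90 rose and 40 fell, from 800 to 1600 bases 30 of 78 rose and 27 fell, and at 1600 bases or more 8 of 35 rose, 12 fell and 15 did not pass. The differences between length classes were not tested. Of all features tested 18.1% rose and 17.3% fell, and these shares were not split by length, so no class can be set beside its own background.

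The level of the abundant features against all others varied between aluminium libraries. Relative to the control mean of each feature, the median log2 level of the 251 was 0.02, -0.004 and -0.02 in controls 1 to 3 and -0.14, -0.03 and -0.11 with aluminium. Over all features tested it was 0.04, -0.03 and 0.03 in aluminium libraries 1 to 3, so aluminium library 2 stood apart from the other aluminium libraries in both. Among the 241 features outside the most abundant DN number, aluminium library 2 was the highest aluminium library in 153 and control library 1 the highest control in 143. Of the 100 features that fell, aluminium library 2 was the one nearest to the control mean in 69, and of the 73 that rose it was so in 22. Without aluminium library 2, 75 features rose and 116 fell.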

How the data were processed

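Root RNA of 3 control and 3 aluminium libraries was sequenced; per the labels' protocols, RNA was extracted with TRIzol and libraries followed standard Illumina protocols. The authors deposited 1 table of RPKM values, a unit named in the file name, and the submitters' processing notes name Bowtie2 2.2.3 without a role. The assembler's version, counting tool and filters are not stated there. Reads were worked back from the RPKM values: all 108674 features gave whole reads in the 6 libraries within 1e-06 reads or a relative 1e-09, taking the smallest length of at least 201 bases, and these reads made up 99.5% of the library totals. The reads and the length of a feature can both be the same fraction of the true ones where all its reads and its length share a factor. Because the file holds RPKM, no count model was the main test. Features that reached 1 RPKM in 3 or more libraries were tested (50679, all 251 members among them). They were compared on log2(RPKM + 0.5) with limma 3.58.1 in R 4.3.3 (lmFit, eBayes with trend, two-sided, Benjamini-Hochberg adjustment, threshold 0.05). Both steps, read recovery and this fit, were run on simulated data. The simulated fit had the same spread beyond counting error for every feature and none shared between features, unlike these data. No 2 libraries of a group agreed within sampling noise (median chi-square 2.84 to 4.38 times that of counting noise), so none was taken for a library deposited a second time; this does not show that they are separate plants. Printed identifiers follow a rule: the 2 largest rises and 2 largest falls past the test without overlap; the 10 highest ranks, the 3 widest ranges within a group and the features at the limit are given by rank. The members, lists and tests were chosen with earlier results of these data known. Alternatives changed the pseudocount, filter, scaling, libraries, block, component rule and test.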

Additional observations from a re-analysis of the deposited data

How the results depend on the processing

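The counts of changed, risen and fallen features stayed within 1.5 times in 16 alternative fits, and no shared call changed direction; 148 of the 173 changed features were called in all 16 (63 rises and 85 falls). Leaving out 1 library in turn gave 160 to 191 changed features, 67 to 75 rises, 89 to 116 falls, 22 to 24 rises and 17 to 31 falls of at least 1.5-fold, a median log2 change of -0.12 to -0.07, and 13 to 14 components changed 1 way and 4 to 7 both ways. The 100 features with the highest mean held 58 changed, 24 risen and 34 fallen features, against 68.9%, 29.1% and 39.8% of the 251. These 100 included all 10 features of the most abundant DN number, none of which passed. The cause of the lower share was not tested. Leaving out control library 3 and aluminium library 2 together, an alternative chosen after the data were seen like the 2 that set aside the most abundant DN number, gave 35 falls of at least 1.5-fold, and the cause was not tested. Quantile normalization gave a median log2 change of -0.042; it sets the distributions of all libraries equal. The share of the 251 differed by -1.11 percentage points in RPKM and by -0.57 in reads. With the replicate block 160 features changed, 68 up and 92 down, and all 160 were among the 173. No label ties a replicate number to a batch or day, so the numbers were not taken as pairs. The deviations of same-numbered libraries from their group means gave r = -0.15, -0.11 and -0.02 across all features tested. Over the 251 features alone the same r values were 0.25, -0.81 and -0.71. Libraries of unlike number gave -0.63 to 0.78 over the 251, with 0.76 for control library 3 and aluminium library 2. Values of this size were thus not particular to libraries of the same number. The 4 features printed by identifier held their direction and call in these 16 fits (highest limma adjusted p = 0.00111). Voom on the recovered reads gave 192 changed features (81 risen and 111 fallen), all 173 among them. edgeR and DESeq2, named for the case of deposited counts, were not run. Counting error was below the spread between libraries at this abundance (medians of 0.952% against 3.10% in control libraries).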
